A study of Mus musculus with 2 samples.

Results

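The genes described here are 9 genes of macrophage scavenging, lipid handling and matrix breakdown: the surface glycoprotein gene Adgre1, the scavenger and lectin receptor genes Cd163, Mrc1, Msr1 and Cd36, the lipid-sensing receptor gene Trem2, the lipid carrier gene Apoe, the lysosomal lipase gene Lipa and the elastase gene Mmp12. They were chosen by name, as 9 of the 468 genes counted in tags 2 to 4, and the rule uses no measured value. Earlier results of these data were, however, known when they were chosen. The table of tag 1 holds 396 genes, all shared with the other tags, and 7 of the 9 members, without Mrc1 and Msr1. The cells came from orthotopic 4T1 tumours, a mouse mammary carcinoma line, grown in the mammary fat pad of 8-week-old female BALB/c mice. Antibodies were given once tumours had formed by day 7 at about 70 mm3, in 4 arms of 6 mice: an isotype antibody, anti-Siglec-E, anti-PD-1, or both anti-Siglec-E and anti-PD-1. For single cells, 2 tumours per arm were dissociated and Epcam-positive and Epcam-negative cells were loaded at 1 to 4. The share of each class among all cells therefore depended on that ratio and is not its share in the tumour.

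Each GEO sample is 1 cartridge that holds 2 arms. The first cartridge, the pool without anti-PD-1, held the isotype and anti-Siglec-E arms in tags 1 and 2. The second cartridge, the anti-PD-1 pool, held the anti-PD-1 and combination arms in tags 3 and 4. The labels do not tie a tag to an arm, so every value below is given by tag number and no comparison of arms is made. With 1 cartridge per pool there is no replicate: no p-value is given, tags are not replicates, and the 95% intervals (exact Poisson for levels, Clopper-Pearson for shares) cover counting error alone. The treatment and the cartridge cannot be told apart. Tag 1 was also counted with another reference than tags 2 to 4, and the part of this was not tested except by leaving that tag out.

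Tumour macrophages take up dying cells, lipoproteins and matrix fragments. The proteins of Cd163, Mrc1, Msr1 and Cd36 bind haemoglobin complexes, mannosylated glycoproteins, modified lipoproteins and fatty acids at the cell surface, the Trem2 protein senses lipids and signals through the adaptor Tyrobp, and the products of Apoe and Lipa export and hydrolyse the lipid taken up. The Adgre1 product is F4/80, the standard surface marker of mouse macrophages, and Mmp12 encodes macrophage metalloelastase. Monocytes that enter a tumour from blood mature into such macrophages, and Trem2 and Apoe are known as genes of lipid-laden tumour macrophages.

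Macrophages were gated by at least 3 molecules of the complement genes C1qa and C1qb together and S100a8 under 10% of the cell's molecules, and monocytes by at least 2 molecules of Ccr2 and 3 of Cd14 and Lyz2 with fewer C1q molecules. No member was part of a gate. The gates took 243 macrophages (74, 31, 117 and 21 in tags 1 to 4) and 325 monocytes (77, 46, 147 and 55) out of 12018 cells. Gated macrophages were deeper than monocytes, with a median of 4749, 3588, 5029 and 3746 molecules of the shared genes per cell against 2411, 2368, 2060 and 2338; the part of depth in the differences between the classes was tested only where thinned values are given. Levels are molecules per 1e+06 (CPM): a gene's molecules over the molecules of the 396 shared genes, summed over the cells of a class. Primer efficiency differs between targets, so levels are not compared between genes.

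Markers of other cells were present in the gates at the following levels. Summed CPM in macrophages was 39.7 to 114 for 6 T cell genes, 18.9 to 51.4 for 4 B cell genes, 0 to 264 for 3 NK cell genes, 28.4 to 1825 for 3 dendritic cell genes and 4024 to 8786 for the neutrophil genes. Most of the last was S100a8, which stood at 3399 to 8476 in macrophages and 313995 to 396583 in neutrophils. The gates set the T, B, NK and neutrophil sums in part, so these are no independent measure of purity. Cells with at least 3 molecules of Cd3d, Cd3e and Cd3g, of Cd79a and Cd79b, or of the NK cell gate genes had left the macrophage class. S100a8 was capped in macrophages, and neutrophils had to hold S100a8 plus S100a9 at 5% or more of their molecules. The epithelial gene Epcam stood at 2688, 1606 and 37.9 CPM in macrophages of tags 2 to 4, and at 8028, 9905 and 9738 in the Lgals1-high class, which includes the tumour cells. At least 3 Epcam molecules were found in 5 of 31, 26 of 117 and 1 of 21 of these macrophages, and in tag 1 Epcam is not in the table. Its part in the results below was not tested except where a value without those cells is given. Cells that passed both a lymphocyte and a myeloid gate, or more than 1 lymphocyte gate, were set aside as mixed (24, 32, 61 and 29). No other doublet call was made. Pairs of tags shared at most 16 cell barcodes, all between cartridges.

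The gates held most of the Trem2 and Mmp12 molecules. Macrophages were 1.45 to 3.05% and monocytes 2.22 to 3.79% of a tag's cells, and together they held 67.2, 63.0, 70.1 and 55.5% of all Trem2 molecules in tags 1 to 4. The corresponding shares of Mmp12 were 65.5, 60.1, 64.0 and 67.5%. Lipa was spread more widely, with 27.8, 17.0, 27.8 and 13.8% of its molecules in the gates and 22.6 to 31.0% in neutrophils. In neutrophils, the most numerous class, Lipa stood at 8.16 to 12.2 CPM, Trem2 at 5.19 to 14.5, Mrc1 at 1.88 to 8.84 and Cd163 at 0.289 to 2.04. Mmp12 reached 445 CPM in tag 1 neutrophils, where 1 cell held 84.8% of the molecules, and 44.6 to 109 in the other tags. Fewer cells of a class and less RNA per cell cannot be told apart in these sums of molecules over all cells.

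**Figure D1:**
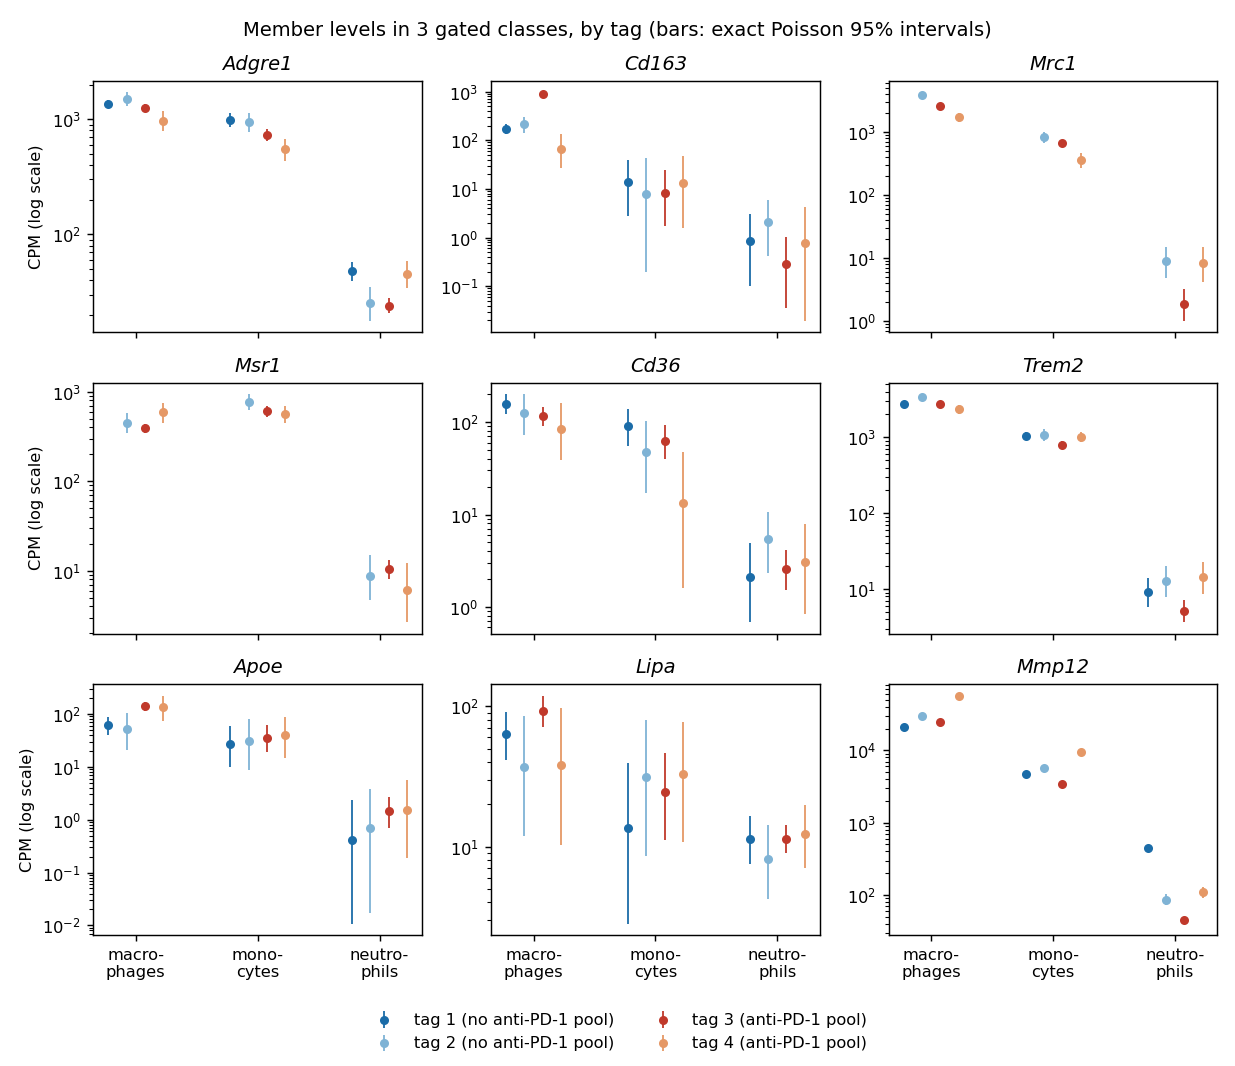
CPM of shared-gene molecules (log axis) of each member in gated macrophages, monocytes and neutrophils; points are tags and bars are exact Poisson 95% intervals. Trem2 sits between 2329 and 3393 in macrophages, 788 and 1072 in monocytes, and 5.19 and 14.5 in neutrophils, while Msr1 sits between 390 and 587 in macrophages and 560 and 775 in monocytes.

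Adgre1 stood at 1369, 1491, 1266 and 966 CPM in macrophages of tags 1 to 4 and at 987, 939, 731 and 547 in monocytes. The level was higher in macrophages in each tag, by 1.39, 1.59, 1.73 and 1.77 times, and the intervals did not overlap in any tag. The gene spans chr17:57358691-57483527 on the plus strand (GRCm38, GENCODE). A molecule of it was seen in 58 of 74, 25 of 31, 94 of 117 and 16 of 21 macrophages, so the F4/80 gene, which was not used in the gate, marked most of the cells that the gate took.

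Mrc1 (chr2:14229392-14332057, plus strand), the mannose receptor gene, stood at 3871, 2548 and 1695 CPM in macrophages of tags 2 to 4 and at 822, 663 and 356 in monocytes. Macrophages were 4.71, 3.84 and 4.76 times higher. Tag 2 was highest and tag 4 lowest in both classes. At least 1 molecule was found in 143 of 169 macrophages.

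Msr1 (chr8:39581685-39642673, minus strand), the class A scavenger receptor gene, was the exception among the members. It stood at 448, 390 and 587 CPM in macrophages of tags 2 to 4 and at 775, 606 and 560 in monocytes. The ratio of macrophages to monocytes was 0.58 in tag 2 and 0.64 in tag 3, with intervals that did not overlap, and 1.05 in tag 4, where they did. In tag 4 a single cell held 40.3% of the 62 macrophage molecules, and without it the level was 451 CPM. The cell with the most Msr1 held 5.38 to 17.2% of the molecules of a class otherwise.

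Cd163 (chr6:124304656-124330527, plus strand), the haemoglobin scavenger receptor gene, was a gene of very few cells. Its levels of 171, 213, 886 and 66.3 CPM in macrophages came from 73, 29, 590 and 7 molecules in 5, 3, 6 and 1 cells. The highest cell held 72.6, 93.1, 45.3 and 100% of them. In tag 3 the 3 highest cells held 98.5%, and these cells carried 122, 92 and 112 Mrc1 molecules, 95, 37 and 39 of the ficolin gene Fcna, and 0, 0 and 3 of Mmp12. In tag 1, by contrast, the 2 highest cells held 53 and 15 Cd163 molecules together with 1286 and 227 of Mmp12. A further tag 1 cell in the mixed class carried 162 Cd163 molecules, and that class held 69.7% of all Cd163 of the tag. In monocytes Cd163 was at 7.83 to 13.6 CPM, from 1 to 3 molecules per tag.

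Cd36 (chr5:17781690-17888801, minus strand), the fatty acid and oxidised lipoprotein receptor gene, stood at 159, 125, 116 and 85.2 CPM in macrophages and at 90.6, 47.0, 62.7 and 13.2 in monocytes. It was seen in 41 of 243 macrophages. Ratios ran from 1.75 to 6.47, and the intervals overlapped in every tag; tag 4 had 9 and 2 molecules.

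Trem2 (chr17:48346401-48354147, plus strand) was the member found in the most macrophages, 220 of 243. It stood at 2736, 3393, 2726 and 2329 CPM there, against 1041, 1072, 788 and 1015 in monocytes, and macrophages were 2.63, 3.16, 3.46 and 2.30 times higher with intervals apart in every tag. A macrophage held a median of 11, 12, 10 and 4 Trem2 molecules in tags 1 to 4.

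Apoe (chr7:19696109-19699188, minus strand) was detected at few molecules, 26, 7, 93 and 14 in the macrophages of tags 1 to 4. That gave 60.7, 51.4, 140 and 133 CPM, against 27.2, 31.3, 35.5 and 39.5 in monocytes. The 95% intervals in macrophages were 39.7 to 89.0 in tag 1, 20.7 to 106 in tag 2, 113 to 171 in tag 3 and 72.5 to 222 in tag 4. Tags 3 and 4 were higher than tags 1 and 2, and only the interval of tag 3 lay clear of the tag 1 interval and of the tag 2 interval. Against monocytes the intervals were apart in tag 3 alone. No single cell held more than 28.6% of the macrophage molecules of a tag.

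Lipa (chr19:34492318-34527474, minus strand) gave 27, 5, 62 and 4 macrophage molecules and 63.1, 36.7, 93.1 and 37.9 CPM, against 13.6, 31.3, 24.5 and 32.9 in monocytes. The ratio to monocytes was 4.64 in tag 1 and 3.79 in tag 3, where intervals did not overlap, and 1.17 and 1.15 in tags 2 and 4, where counts were too low to show a difference.

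Mmp12 (chr9:7344381-7369499, plus strand) stood at 21170, 29892, 24582 and 55619 CPM in macrophages and at 4655, 5762, 3409 and 9605 in monocytes, with macrophages 4.55, 5.19, 7.21 and 5.79 times higher. The high level of tag 4 came from 1 cell. That cell held 4394 of the 5874 molecules, or 74.8%, and without it the other 20 macrophages stood at 18029 CPM (17122 to 18971), below the level of every other tag. The cell had 23520 molecules in all, against a median of 3746 and a next highest of 10950 in that gate, and Mmp12 made up 18.7% of them. It also carried 88 of 246 Trem2 molecules, 25 of 62 Msr1 molecules, 7 of 9 Cd36 molecules, 1920 molecules of the osteopontin gene Spp1, 794 of the 800 molecules of the lysosome-associated gene Gpnmb and 248 of Mmp9. Adgre1 and Cd163 were at 0 in it, and it passed the macrophage gate with the minimum of 3 C1q molecules. Among monocytes of tag 4, too, 1 cell held 75.6% of the Mmp12 molecules. With the highest cell of each class left out, Mmp12 in macrophages was 18835, 25880, 22280 and 18029 CPM, and in monocytes 3376, 3826, 2665 and 2633.

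**Figure D2:**
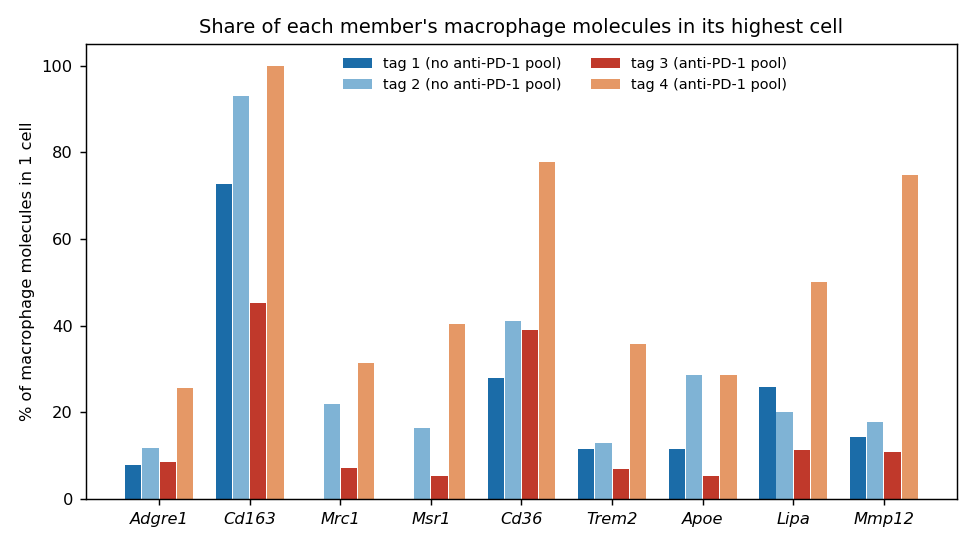
Percent of each member's macrophage molecules found in its single highest cell, by tag. Cd163 reaches 45.3 to 100% in every tag and Mmp12 74.8% in tag 4, where Trem2 and Msr1 stand at 35.8 and 40.3%, while Adgre1 stays between 7.85 and 25.5%.

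Macrophages exceeded monocytes at least 2-fold in every tag that held the gene for 4 members: Cd163, Mmp12, Mrc1 and Trem2. The same rule called 6.63% of the 347 genes with at least 30 molecules higher, and likewise 6.63% lower in macrophages, none of them a member. Over the 9 members the median log2 ratio was 1.51, beside -0.15 over all genes tested. The smallest ratio was 5.03 for Cd163, 4.55 for Mmp12, 3.84 for Mrc1 and 2.30 for Trem2. The Trem2 call ended when the gate asked for 5 C1q molecules or was applied to cells thinned to 1000 molecules. Leaving the 1 cell rich in Mmp12 out of the tag 4 macrophages, with monocytes as they were, put the tag 4 ratio at 1.90 for Trem2 and 1.88 for Mmp12, so that 2 members, Cd163 and Mrc1, passed in every tag. Leaving out the highest cell of both classes kept both calls and added Apoe and Cd36. The Cd163 call ended then, with 0 macrophage molecules left in tag 4.

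**Figure D3:**
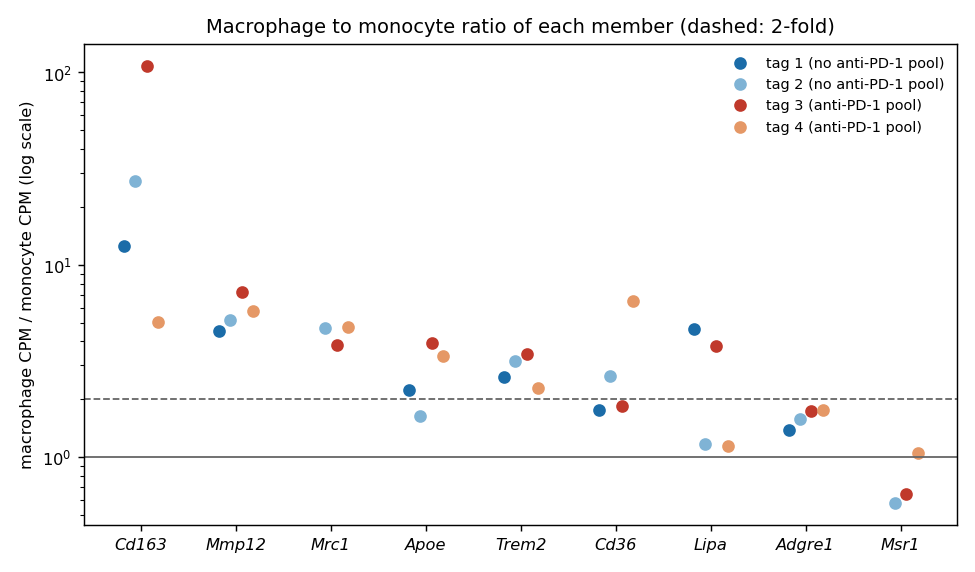
Ratio of macrophage to monocyte CPM for each member, by tag, on a log axis; the solid line marks equal levels and the dashed line 2-fold. Cd163, Mmp12, Mrc1 and Trem2 lie above 2-fold in every tag, Adgre1 between 1.39 and 1.77, and Msr1 at 0.58 to 1.05.

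The same comparison placed the members beside other genes of their pathways. Of 14 scavenger, opsonin and phagocytosis genes on the panel, 3 were higher in macrophages and none lower, with a list median log2 ratio of -0.25 beside -0.15 over all genes. C1qa and C1qb were the gate, and the other was Fcna, at 1273, 1520, 652 and 587 CPM against 22.6, 39.1, 10.9 and 72.5. None of the 4 lipid and lysosome genes measured was called, and their median was 0.62. Of 6 matrix genes, Spp1 was higher (2.91 to 3.74 times) and Thbs1, the thrombospondin 1 gene, was lower (ratios of 0.11 to 0.27), with a list median of 0.24. In the monocyte list, Ccr2, which was part of the monocyte gate, and the integrin gene Itga4 (0.20 to 0.43) were lower. None of 9 alternative activation genes (median 0.86) and none of 8 class II genes (median 0.26) was called in either direction.

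To set shares of cells side by side at equal depth, each cell was thinned to 1000 shared-gene molecules and shallower cells were left out (5, 3, 9 and 6 macrophages of tags 1 to 4). Trem2 was then found in 76.8, 78.6, 77.8 and 80.0% of macrophages and in 45.1, 58.1, 38.1 and 40.7% of monocytes, with intervals apart in tags 1 and 3. For Mmp12 the shares were 69.6, 60.7, 73.1 and 66.7% of macrophages against 36.6, 23.3, 19.4 and 29.6% of monocytes, apart in tags 1 to 3. Mrc1 was found in 71.4, 68.5 and 60.0% of macrophages of tags 2 to 4 against 23.3, 11.2 and 12.96% of monocytes, apart in each tag. Adgre1 (56.5, 50.0, 51.9 and 60.0% against 47.9, 58.1, 43.3 and 35.2%) and Msr1 (35.7, 34.3 and 46.7% against 46.5, 36.6 and 35.2%) had intervals that overlapped between the classes in every tag. Apoe was found in 5.80, 10.7, 12.96 and 13.3% of thinned macrophages, with an interval in tag 4 of 1.66 to 40.5%.

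A background of free RNA was read from neutrophils and T cells thinned in the same way; neutrophils had a median of 1228 to 1283 molecules before thinning. Trem2 was found in 0.744, 1.23, 0.114 and 0.420% of neutrophils and 1.94, 1.18, 1.06 and 1.59% of T cells, far below either gate. Mmp12 was found in 1.26 to 5.62% of neutrophils and 4.25 to 8.24% of T cells. Lipa was found in 1.45, 3.57, 9.26 and 6.67% of macrophages and in up to 1.91% of T cells. Its intervals in macrophages overlapped those of T cells in tags 1, 2 and 4, so a share of macrophages above background was not detectable there. The T cell gate was not pure, with S100a8 at 336332 to 462253 CPM, against 313995 to 396583 in neutrophils. Unthinned, Trem2 was in 86.5, 87.1, 94.9 and 85.7% of macrophages and Apoe in 23.0, 19.4, 51.3 and 38.1%.

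Which members went together was read across single macrophages within each tag, as Spearman's rho of log counts per 10000 molecules over 74, 31, 117 and 21 cells. The cells of a tag share a library and a total that enters both values, so rho is given as a description. Of 36 pairs of members, 13 were positive in every tag that held both and none was negative in every tag, and 9 had a mean rho above 0.2. No such count was made over all gene pairs, so nothing about the members as a set is read from these counts. Pairs of a member with another gene were positive in every tag too, among them Trem2 with Arg1 (mean rho of 0.34) and Mrc1 with C1qa (0.36).

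**Figure D4:**
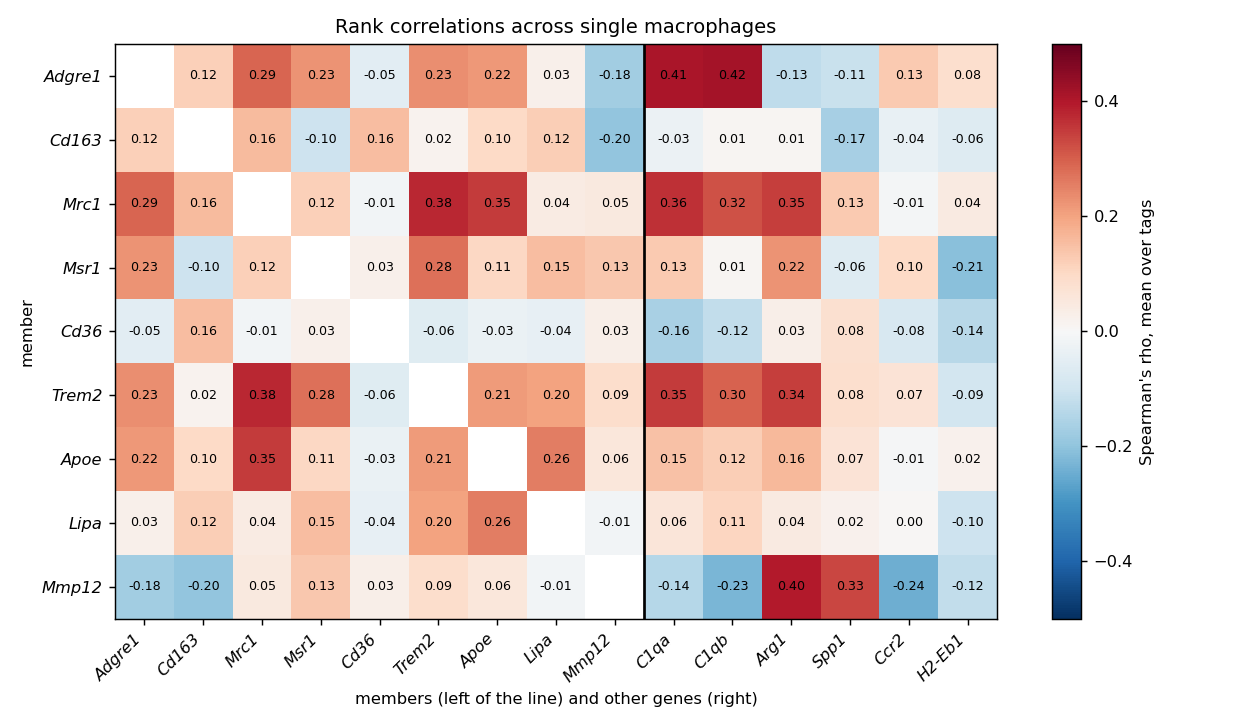
Spearman's rho across single macrophages, mean over the tags holding both genes, for pairs of members (left of the line) and of members with C1qa, C1qb, Arg1, Spp1, Ccr2 and H2-Eb1 (right). Mrc1 and Trem2 share the highest value among members, 0.38. Mmp12 is at 0.40 with Arg1, 0.13 with Msr1, -0.18 with Adgre1 and -0.20 with Cd163.

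Trem2 and Mrc1 formed the closest pair, with rho of 0.59, 0.28 and 0.26 in tags 2 to 4. After thinning the values were 0.49, 0.11 and 0.41, and with the cell total taken out 0.65, 0.33 and 0.41. In monocytes they were 0.39, 0.27 and 0.36. Among thinned macrophages with Mrc1, Trem2 was found in 18 of 20, 61 of 74 and 8 of 9 cells of tags 2 to 4, and among those without Mrc1 in 4 of 8, 23 of 34 and 4 of 6. Adgre1 joined them, with a mean rho of 0.29 with Mrc1 (0.20 to 0.34) and 0.23 with Trem2 (-0.01 to 0.33), the low value being that of the 21 cells of tag 4. The 3 genes also tracked the complement genes: mean rho with C1qa was 0.41 for Adgre1, 0.36 for Mrc1 and 0.35 for Trem2, each positive in every tag. Since C1q set the gate, these values describe cells above its minimum.

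Apoe went with Mrc1 at a mean rho of 0.35, at 0.09 after thinning and at 0.35 with the cell total taken out. Thinning left Apoe in 5.80 to 13.3% and Lipa in 1.45 to 9.26% of macrophages. With Trem2 the mean rho of Apoe was 0.21, positive in each of the 4 tags, and 0.19 after thinning, and with Adgre1 it was 0.22 and 0.24. With the cell total taken out, Apoe was at 0.28 with Trem2 and 0.15 with Adgre1. Apoe and Lipa had a mean rho of 0.26 that became -0.06 after thinning and 0.27 with the cell total taken out. No reading is given for that pair. Msr1 had mean values of 0.28 with Trem2 and 0.23 with Adgre1, and of 0.02 and 0.06 after thinning. They were 0.14 and 0.16 with the cell total taken out. The mean rho of Cd36 with other members ran from -0.06 to 0.16, and the highest, with Cd163, was -0.01 to 0.61 over tags. Cd36 was seen in 41 of 243 macrophages, too few to show that it goes with no other member.

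The mean rho of Mmp12 with the other members ran from -0.20 to 0.13. It was -0.18 with Adgre1 (-0.06, -0.41, -0.27 and 0.05 in tags 1 to 4) and -0.20 with Cd163 (-0.40 to 0.11), which few cells carried. With Msr1 it was 0.13, positive in every tag that held both, and -0.07 after thinning. Means with Trem2, Apoe and Mrc1 were 0.09, 0.06 and 0.05, each of mixed sign over tags. With Ccr2, not a member, the mean was -0.24, negative in every tag. Of the 6 other genes set beside the members, Mmp12 had its highest mean with Arg1, the arginase 1 gene, at 0.49, 0.37, 0.25 and 0.47 in tags 1 to 4. With Spp1 it was at 0.23, -0.15, 0.43 and 0.81. This order depended on depth: after thinning the means were 0.29 with Arg1 and 0.36 with Spp1, and with the cell total taken out 0.26 and 0.26. Thinned macrophages with Adgre1 held Mmp12 in 27 of 39, 6 of 14, 36 of 56 and 6 of 9 cells, and those without Adgre1 in 21 of 30, 11 of 14, 43 of 52 and 4 of 6. In monocytes the rho of Mmp12 with Adgre1 was -0.04, -0.13, -0.20 and -0.26, and with Arg1 0.39, 0.28, 0.42 and 0.32.

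Beyond the members, the genes most like each were taken from among the genes found in at least 10% of macrophages in every tag; Cd163 was in fewer and is left out. Those nearest to Trem2 were Lamp1, Ctsd and Lyz2 (mean rho of 0.49, 0.45 and 0.41), which encode a lysosomal membrane protein, cathepsin D and lysozyme. Adgre1 was nearest to Siglec1, the CD169 gene (0.47 over 3 tags), to C1qb (0.42) and to Cd72 (0.41). Mmp12 was nearest to Lgals3, the galectin-3 gene (0.50), and to the receptor genes Tnfrsf9 (0.45) and Il7r (0.44). For Mrc1 the nearest were the cyclooxygenase 1 gene Ptgs1 (0.42) and Lamp1 (0.41), followed by Trem2, and for Msr1 the transporter genes Slc11a1 (0.40) and Slc7a11 (0.34) and then Cd72 (0.33). The nearest genes to Apoe were Ptgs1 (0.37), Mrc1 (0.35) and the chemokine gene Ccl5 (0.28, from -0.10 to 0.61). No gene exceeded a mean of 0.39 with Lipa (Slc9a9, Selplg and Traf6 led) or 0.27 with Cd36 (Stat5a, Bcar3 and Bhlhe41 led), and both Slc9a9 and Stat5a were at 0.01 in their lowest tag.

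Trem2 and Mrc1 were the closest pair, and Mmp12 had a mean rho of 0.09 and 0.05 with them. The promoters of these genes are shown for comparison as the 250 bases before the RefSeq start (GRCm38.p6), 5′ to 3′ along the gene. Capitals mark matches on either strand to GAGGAA, the core of the box bound by the myeloid factor PU.1, and to TGANTCA. The latter is a loose form of the AP-1 site, with any base allowed in the middle. CACGTG, the E-box, was also searched and had no match in these windows.
Trem2 (chr17:48346151-48346400, plus strand): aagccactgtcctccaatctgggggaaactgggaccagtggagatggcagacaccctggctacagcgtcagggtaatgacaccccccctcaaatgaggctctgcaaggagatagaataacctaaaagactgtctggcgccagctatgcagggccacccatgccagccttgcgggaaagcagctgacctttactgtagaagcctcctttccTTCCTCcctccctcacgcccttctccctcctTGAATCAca
Mrc1 (chr2:14229164-14229413, plus strand): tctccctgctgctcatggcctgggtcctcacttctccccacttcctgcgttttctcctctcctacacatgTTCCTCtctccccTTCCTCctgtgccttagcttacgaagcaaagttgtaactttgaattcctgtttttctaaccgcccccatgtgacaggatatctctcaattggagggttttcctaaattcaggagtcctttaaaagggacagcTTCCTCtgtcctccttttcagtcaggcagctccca
Mmp12 (chr9:7347124-7347373, plus strand): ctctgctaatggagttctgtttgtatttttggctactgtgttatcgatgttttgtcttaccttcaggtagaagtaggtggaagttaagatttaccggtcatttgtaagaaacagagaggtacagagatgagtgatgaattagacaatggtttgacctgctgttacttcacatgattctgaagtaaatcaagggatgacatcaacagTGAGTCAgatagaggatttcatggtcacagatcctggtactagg
GAGGAA was found 1 time before Trem2, 3 times before Mrc1 and not in the Mmp12 window shown, which lies inside the gene span. The Mrc1 start is not an annotated GENCODE start, and its window runs past the 5′ end of the gene span, chr2:14229392. TGANTCA was found 1 time before Trem2, as TGAATCA, and 1 time in that Mmp12 window, as TGAGTCA. In the same 250 bases of 32841 RefSeq promoters, 23.3% held GAGGAA, 6.75% TGANTCA and 6.02% CACGTG. The table had entries for 7 of the 9 members, with more than 1 start for Apoe and Mmp12, and not for Adgre1 and Msr1. The other Mmp12 window, chr9:7344147-7344396, at the 5′ end of the gene span, held GAGGAA 1 time and no TGANTCA. No contrast between Mmp12 and the other genes is therefore read from these matches. A match is a run of letters and not evidence of binding.

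Macrophages were next divided within each tag at the median share of Arg1, an enzyme gene of alternative activation. Of the members, Mmp12 was higher in the Arg1-high group by at least 1.5 times in every tag: 26641 against 12097 CPM in tag 1, 43980 against 11571 in tag 2, 33344 against 14326 in tag 3 and 73500 against 19674 in tag 4. That rule called 3.46% of 318 genes higher and 5.66% lower. Trem2 was 1.58, 1.37, 1.32 and 1.62 times higher in the Arg1-high group, and Adgre1 stood at ratios of 0.56, 0.60, 0.72 and 0.45, neither passing in every tag. Mrc1 had ratios of 1.94, 1.39 and 1.05, Msr1 of 0.68, 1.26 and 1.17, and Cd163 of 43.4 in tag 1 but 0.05, 0.22 and 0 in the others. The Mmp12 call ended without the tag 4 cell rich in Mmp12, without the highest cell of each gene, without the 5% deepest cells and with a C1q minimum of 5, while its log2 ratio stayed between 0.89 and 2.03 over all settings. The median gene was at -0.40 on the log2 scale, and TMM factors, which moved it to -0.01, added Mrc1 and Trem2 to the calls and moved the balance of all calls from 11 higher and 18 lower to 16 and 9.

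**Figure D5:**
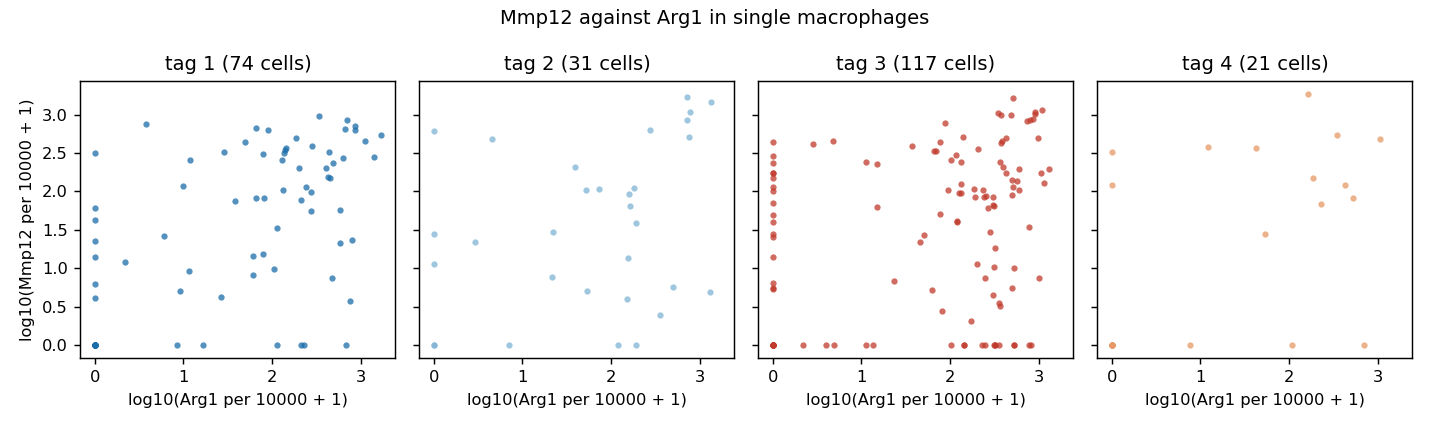
Mmp12 against Arg1 in single macrophages, both as log10 of counts per 10000 shared-gene molecules plus 1, 1 panel per tag; each point is a cell. Spearman's correlation is 0.49, 0.37, 0.25 and 0.47 in tags 1 to 4, and cells at 0 on either axis are present in every tag.

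Other genes in the same comparison gave the surroundings of Mmp12. Besides Arg1 itself, the Arg1-high group had more of Lgals3, of the haem oxygenase gene Hmox1 (1.81 to 4.10 times) and of Mmp9 (9.10 to 119 times). Lgals3 was 1.96, 1.51 and 4.48 times higher in tags 2 to 4, and only just passed the rule in tag 1. In tag 4, 1 cell held 98.4% of the Mmp9 molecules and 1 cell held 46.9% of the Lgals3 molecules. Of 8 class II antigen presentation genes, 6 were lower and none higher: Cd74, Cd86, H2-Aa, H2-Ab1, H2-DMa and H2-Eb1. H2-Eb1, a class II beta chain gene, stood at 6793 against 20109 CPM in tag 1 and at 20556 against 37921 in tag 4. The list median was -1.08 on the log2 scale, beside -0.40 over all genes. None of 14 scavenger, opsonin and phagocytosis genes was called.

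Between the pools, the question was which members differed in macrophages from tumours given anti-PD-1. Apoe was higher in tags 3 and 4 than in tags 1 and 2, with 2.18-fold between the nearest tags and a log2 difference of 1.28 between pool means. The rule of 1.5-fold between the nearest tags called 1.91% of the 262 genes counted in 4 tags higher and 9.16% lower, and Apoe was 1 of the 5 higher. It was called under every setting in which this comparison was rerun, each tag left out included. Counting error alone is nonetheless wide here, and tags 2 and 4, with 7 and 14 molecules, had intervals that overlapped. Fewer than 30 Apoe molecules were counted in each of 3 tags. Shares of cells at equal depth did not set the pools clearly apart. At 1000 molecules per cell Apoe was found in 5.80, 10.7, 12.96 and 13.3% of macrophages, with intervals that overlapped between all tags. At 500 molecules per cell the shares were 2.82, 6.67, 11.5 and 5.26%, with tag 4 below tag 2.

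Mrc1 was lower in tags 3 and 4 than in tag 2, with 1.52-fold between the nearest tags. For genes held by tags 2 to 4 alone, with 1 tag against 2, the rule called 32.1% of 56 genes, so nothing is read from the call for Mrc1. The call ended with TMM factors, with either other S100a8 ceiling, with 3 genes taken out of the total, without Epcam-positive cells, with mixed cells put back, without the 5% deepest cells and without the highest cells. The other 7 members were not called. Trem2 had a log2 difference of -0.28 and Adgre1 one of -0.36, close to the median gene at -0.24; with TMM factors they were at -0.06 and -0.14, with the median gene at -0.03. Cd36 stood at -0.50 and was called lower with 5 C1q molecules (-1.49) and without the 5% deepest cells (-2.41). Mmp12 stood at 0.65, at -0.15 without its highest cells and at -0.26 without the tag 4 cell alone. Cd163 stood at 1.31, with tag 3 far above and tag 4 below both tags of the other pool, at -1.53 without tag 3 and at 2.21 without tag 4.

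Of the list genes counted in 4 tags, 0 were higher and 2 lower of 13 scavenger genes between the pools, 0 and 0 of 3 lipid and lysosome genes, 0 and 1 of 6 matrix genes, 1 and 2 of 8 alternative activation genes, 0 and 0 of 4 monocyte genes, and 1 and 0 of 7 class II genes, where the rule called 1.91% of all such genes higher and 9.16% lower. Their median log2 differences were -0.09, 0.14, -0.32, -0.23, -0.43 and 0.56 in that order, beside -0.24 over all genes of 4 tags. Of the 4 list genes counted in tags 2 to 4 alone, 3 passed, Gpnmb and Retnla higher and Cd80 lower, with tag 2 alone standing for the pool without anti-PD-1, and nothing is read from these calls, as for Mrc1. Several of the called genes were carried by 1 cell. Gpnmb stood at 235, 1096 and 7575 CPM in tags 2 to 4, with 81.2, 90.4 and 99.2% of its molecules in 1 cell. Chil3 (18.7, 88.1, 197 and 6742) had 95.5% in 1 cell of tag 4, and Retnla (29.4, 3784.5 and 142 in tags 2 to 4) had 97.9% in 1 cell of tag 3. H2-Eb1 was higher with at most 13.4% in 1 cell, at 11802, 10833, 30265.5 and 26635. Lower in the anti-PD-1 pool were C1qa, which was part of the gate, Fcna, Hmox1, Il10 and Lgals1. A single tag 2 cell held 54.6% of the Fcna, 36.7% of the Il10 and 30.3% of the Lgals1 molecules of that tag. Without the highest cell of each tag Fcna stood at 946, 749, 516 and 398 CPM and Il10 at 2729, 1638, 1157 and 303. The nearest tags were then 1.45 and 1.42 times apart, and neither gene was called, while C1qa, Hmox1, Lgals1, Chil3 and H2-Eb1 still were.

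Within the pools, tags 1 and 2 differed in no member by 2-fold with intervals apart, while 13% of 231 genes did. Their ratios ran from 0.58 for Lipa to 1.41 for Mmp12. Between tags 3 and 4, Cd163 (0.07) and Mmp12 (2.26) differed, beside 13.7% of 284 genes. Without the tag 4 cell rich in Mmp12, Mmp12 was no longer called and Cd36 was called lower in tag 4. Without the highest cell of each tag Mmp12 was no longer called either, and Cd163 was, with 0 molecules left in tag 4 against 323 in tag 3. For Trem2 the ratio was 1.24 between tags 2 and 1 and 0.85 between tags 4 and 3. The tags of 1 cartridge come from different arms, and tag 1 was counted with another reference than tag 2. These ratios are therefore not a replicate error.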

How the data were processed

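Targeted single-cell RNA counts from 4T1 mammary tumours of BALB/c mice were used. The authors deposited 1 table per sample tag of molecule counts per cell and target. Per the file headers, version 1.12.1 of BD's Rhapsody pipeline for targeted panels made them, with another reference for tag 1 than for tags 2 to 4. The submitters' processing notes name Seurat 3.2.0. For the aligner and build nothing is given in the sources used here. Targets of 1 gene were summed. Counts were summed over gated cells and divided by the molecules of the 396 shared genes (Python 3.11.15, pandas 2.3.3, scipy 1.17.1), and edgeR 4.0.16 gave TMM factors as an alternative. Genes needed 30 molecules to be compared. The call rules were tested on simulated data. The named genes were the 9 members, for each the 3 genes of highest mean rho, and up to 3 called genes per list and direction; the class II genes beyond 3, and genes given for single cells, were named after their values were seen. Cells meeting a lymphocyte and a myeloid gate, or more than 1 lymphocyte gate, were left out as mixed, and no doublet caller was run. The members, gates and lists were chosen with earlier results of these data known. Alternatives changed the gates, depth, total, scaling, minimum and tags. 1 gene of the monocyte list is not reported here.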

Additional observations from a re-analysis of the deposited data

Results flagged for a closer look

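Cells that no comparison used carried some of the member signal. The mixed cells are those that passed both a lymphocyte and a myeloid gate, or more than 1 lymphocyte gate. Trem2 in them stood at 2962, 1673, 1534 and 1824 CPM in tags 1 to 4, above the monocyte level of every tag and far above neutrophils. These cells, 24, 32, 61 and 29 in number, held 19.1, 20.4, 16.3 and 31.8% of all Trem2 molecules, and 17, 19, 32 and 12 of them had at least 3 C1q molecules. Cd36 in the dendritic gate, set by Flt3, stood at 561 CPM in tag 3 (433 to 715, 63 cells) and 656 CPM in tag 4 (389 to 1037, 12 cells). The intervals lay above those of macrophages in the same tags, 91.2 to 144 and 39.0 to 162. In tags 1 and 2 this gate held 9 and 10 cells with 0 and 2 Cd36 molecules. The cause was not tested.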

How the results depend on the processing

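The count of 4 members higher in macrophages than in monocytes became 2, Cd163 and Mrc1, without the tag 4 macrophage rich in Mmp12, a setting chosen after seeing the data, and was 3 to 5 under the other settings. Other counts moved. The 2 members called between pools became 1, Apoe alone, with no S100a8 ceiling, with S100a8 under 5%, with S100a8, S100a9 and Fth1 out of the total, with TMM factors, and, among settings chosen after seeing the data, without cells of 3 or more Epcam molecules, with mixed C1q-positive cells put back and without the highest cell of each gene; leaving out 1 tag gave 1 to 4. The 2 members that differed between the tags of 1 pool became 1 with 5 C1q molecules, without the 5% deepest cells and without the highest cells. The 1 member called between Arg1-high and Arg1-low macrophages became 0 under those same 3 settings and without the tag 4 cell rich in Mmp12, 3 with TMM factors, 2 without Epcam-positive cells and 2 with mixed cells put back, and was 1 to 2 with each tag left out. At 500 molecules per cell, 2 members rather than 4 were found in at least 50% of macrophages in every tag, and on thinned cells 5 rather than 9 pairs had a mean rho above 0.2. Cd163 between pools ran from -1.53 without tag 3 to 2.21 without tag 4, against 1.31 on the log2 scale. The mean rho of Apoe and Lipa turned from 0.26 to -0.058 after thinning, and was 0.27 with the cell total taken out. TMM factors moved the split of genes called between pools from 5 higher and 24 lower to 11 and 12, and the median gene from -0.24 to -0.03; leaving 3 genes out of the total gave -0.18. With mixed cells put back, 71 genes were higher and 20 lower in macrophages, rather than 23 and 23. Between pools, 6 genes were higher and 12 lower without Epcam-positive cells, and 4 and 14 with mixed cells put back. The cause of these changes was not tested, except that tag 4 holds 21 macrophages and 1 cell with 22.3% of their molecules. No paired analysis was possible because each pool is 1 cartridge. Depth limits Apoe, Lipa and Cd36, with 140, 98 and 171 macrophage molecules in all.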

Other observations

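The macrophage gate spanned a range of Ccr2, the chemokine receptor gene that also defines the monocyte gate, and the levels of 3 members were read along it. At least 2 Ccr2 molecules were found in 36 of 74, 12 of 31, 63 of 117 and 14 of 21 macrophages of tags 1 to 4. Mmp12 stood at 14171, 30810, 14242 and 20275 CPM in these cells and at 30095, 29556, 36546 and 120747 in the macrophages with fewer, monocytes being at 4655, 5762, 3409 and 9605. Trem2 stood at 2288, 3232, 2368 and 2162 against 3306, 3452, 3141 and 2638, and Adgre1 at 1288, 2383, 1486 and 1300 against 1472, 1164, 1010 and 350. The 7 tag 4 cells with little Ccr2 include the cell rich in Mmp12, and without it the other 6 stood at 6749 CPM for Mmp12, 734 for Trem2 and 954 for Adgre1. Mmp12 was thus higher in the cells with little Ccr2 in tags 1 and 3, slightly lower in tag 2, and in tag 4 higher with that cell and lower without it. Trem2 was higher in them in every tag, but in tag 4 only with that cell, and lower there without it. Adgre1 was higher in them in tag 1 and lower in the others. With that cell left out, none of the 3 genes kept one order in every tag. These ranges are cut from a count and were chosen after seeing the data.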
